A study of Mus musculus with 12 samples.

Results

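Epidermal barrier lipid synthesis was followed through 35 genes out of the 32285 measured, taken by gene symbol from a list arranged by known role. Of these genes, 7 make or desaturate fatty acids, 6 elongate them, 11 make or break down ceramides and related sphingolipids, 7 act on acylceramides or carry lipids, 3 make glycerolipids and 1 encodes a regulator of lipid synthesis. All 35 symbols were found. The data were single-cell RNA-seq counts of the glabrous epidermis of the hind paw of wild-type C57BL/6J mice, 1 library of the 10x Genomics 3' assay per mouse. Male and female mice of 6 to 8 weeks were placed for 10 weeks on a regular diet with 11% fat (RD) or a high-fat diet with 42% fat (HFD), a mouse model of painful diabetic neuropathy, so that they were 16 to 18 weeks old at the end, and there were 3 mice in each of the 4 groups of sex and diet. The comparisons asked at which stage of keratinocyte differentiation each gene was high, whether Langerhans cells (LCs), the antigen-presenting cells of the epidermis, also expressed it, and whether its level differed between HFD and RD within each sex.

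The outermost layer of the skin holds water because dead cells are embedded in sheets of lipid made of ceramides, cholesterol and free fatty acids. Keratinocytes build these lipids as they leave the basal layer: fatty acids are made from acetyl-CoA, elongated to very long chains, joined to a sphingoid base to give ceramides, and partly esterified with linoleic acid to give acylceramides. The lipids are glucosylated or converted to sphingomyelin, loaded into lamellar bodies, secreted at the top of the granular layer and turned back into ceramides outside the cells. Loss of several of these enzymes and carriers causes inherited ichthyosis, a group of scaling skin diseases.

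Each library held between 134449247 and 194673581 UMIs (unique molecular identifiers, each counting 1 captured transcript), and 62147 male and 64228 female cells passed the filters on genes and mitochondrial UMIs. The median UMIs per cell lay between 6577 (male RD 2) and 15047.5 (male HFD 1), so that these libraries stand at the ends of the range in depth, and results that rest on male RD 2 are given with and without it. Any pair of libraries shared at most 0.564% of the barcodes of the smaller one. Cells were clustered within each sex without the 35 genes, and clusters were named by markers: basal (Krt5, Krt14), proliferating (Mki67, Top2a), suprabasal or spinous (Krt1, Krt10), terminally differentiated (Flg, Lor), migratory (Krt79) and LC (Cd207, Cd74). The suprabasal class held 2 clusters in each sex, called lower and upper suprabasal here by their Ivl, Lor and Flg UMIs, and 1 large cluster with Il34 among its 3 leading genes (Chchd10, Il34 and Mycl in males, Hhip, Mettl7a1 and Il34 in females) fell in no class. A level is given in CPM, the UMIs of a gene scaled to a fixed total of UMIs over the cells of a class in 1 library, and it does not depend on transcript length. In such sums a smaller share of expressing cells and fewer transcripts per cell cannot be told apart. In male basal cells the median UMIs per cell were 6677, 4646 and 7279 in RD and 9887.5, 8118 and 7946 in HFD libraries. These medians were also higher in HFD without overlap in male proliferating and suprabasal cells, the male cluster in no class and female basal cells. There, diet and depth per cell cannot be told apart. The median mitochondrial UMIs of male libraries were 3.00% to 3.23% in RD and 3.31% to 3.46% in HFD. All male counts came from one version of Cell Ranger and all female counts from another, so sex and counting software cannot be told apart and levels of the 35 genes were not compared between the sexes.

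The promoters of 26 of the 35 genes were found in a RefSeq table for build GRCm38.p6, as 29 sequences of 250 bases before and 50 bases after a transcript start. Elovl4 and Fasn are shown because the levels of both were higher in suprabasal than in basal keratinocytes in both sexes, and Elovl5 because it was highest in LCs instead. Each is printed 5′ to 3′ on the coding strand up to 20 bases past the start. Capitals mark E-boxes (CACGTG) in Elovl4 and Elovl5, and CCAAT boxes, read on either strand, in Fasn.
Elovl4, chr9:83806286-83806555, minus strand: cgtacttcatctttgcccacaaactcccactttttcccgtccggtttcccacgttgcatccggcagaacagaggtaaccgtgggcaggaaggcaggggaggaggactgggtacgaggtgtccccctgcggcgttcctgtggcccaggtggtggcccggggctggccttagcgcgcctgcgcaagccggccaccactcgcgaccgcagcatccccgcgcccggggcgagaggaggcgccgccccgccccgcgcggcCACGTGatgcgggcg
Elovl5, chr9:77917115-77917384, plus strand: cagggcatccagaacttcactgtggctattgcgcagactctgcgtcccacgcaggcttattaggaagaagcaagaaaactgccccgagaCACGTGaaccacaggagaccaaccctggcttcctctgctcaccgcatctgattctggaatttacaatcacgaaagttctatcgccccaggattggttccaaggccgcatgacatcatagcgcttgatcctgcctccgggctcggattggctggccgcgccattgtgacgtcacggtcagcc
Fasn, chr11:120824528-120824797, minus strand: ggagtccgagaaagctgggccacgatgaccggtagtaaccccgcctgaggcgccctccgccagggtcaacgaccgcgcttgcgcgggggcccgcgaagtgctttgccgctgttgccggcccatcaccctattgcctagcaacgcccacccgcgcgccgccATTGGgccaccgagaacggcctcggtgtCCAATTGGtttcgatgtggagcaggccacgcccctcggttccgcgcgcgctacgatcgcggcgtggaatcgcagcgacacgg
The E-box of Elovl4 began at position 6 counted from the start, that of Elovl5 at -161, and the CCAAT boxes of Fasn at -90, -62 and -59, the last 2 overlapping on opposite strands. An E-box, searched as CACGTG, was present in 3 of the 29 sequences (Degs1, Elovl4 and Elovl5) and in 7.15% of all 32851 promoters of the table. CCAAT was present on either strand in 11 of the 29 sequences (10 genes), against 37.4% of all promoters, and the GC box GGGCGG in 17 (15 genes), against 35.7%. Neither the sterol response element TCACNCCAC (1.24% of all promoters), nor the PPAR site of the DR1 type (0.0396%), nor the AP-1 site TGANTCA (7.81%) was found in these windows. Elovl4 lies on chromosome 9 (83778692 to 83806277), Elovl5 also on chromosome 9 (77917364 to 77984519) and Fasn on chromosome 11 (120805846 to 120824547) of GRCm38, in the annotation GENCODE vM21. The printed Elovl4 window lies wholly upstream of the gene as placed by GENCODE. Its E-box position thus holds for the RefSeq transcript start only.

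Most of the 35 genes had their highest level above the basal layer. The levels were ranked over 8 classes or clusters, the 7 of keratinocytes and LCs, and a small class of T cells (23 to 90 cells per library) was left out of the ranking. In both sexes, 21 genes were highest in the upper suprabasal or the terminally differentiated cells, 5 (Scd1, Elovl3, Elovl6, Cers4 and Degs2) in the migratory class and 5 (Fads1, Fads2, Elovl5, Asah1 and Dgat1) in LCs, of which Dgat1 had a higher mean in T cells. Agpat3 was highest in the lower suprabasal cells of both sexes, and Acaca, Sptlc2 and Srebf1 had their highest means in different classes in males and females. In males the upper and lower suprabasal ranges overlapped for Acaca (means 22.1 and 21.2 CPM) and Srebf1 (39.1 and 38.9 CPM). In females the ranges of the highest and next class overlapped for all of these genes, with 109 CPM in basal and 107 CPM in upper suprabasal cells for Sptlc2. A difference between the sexes in stage was thus not shown for them. Units of the same name differed in their markers between the sexes: upper suprabasal cells had 647 CPM of Flg and 1117 CPM of Lor in males and 2883 and 5675 CPM in females, and terminally differentiated cells had 79.7 and 4.58 CPM of Ivl. Where a gene peaked in upper suprabasal cells in 1 sex and in terminally differentiated cells in the other, such a difference between the clusters and one between the sexes cannot be told apart. Since the classes are clusters of the same cells, the levels over classes are a description without a test.

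**Figure D1:**
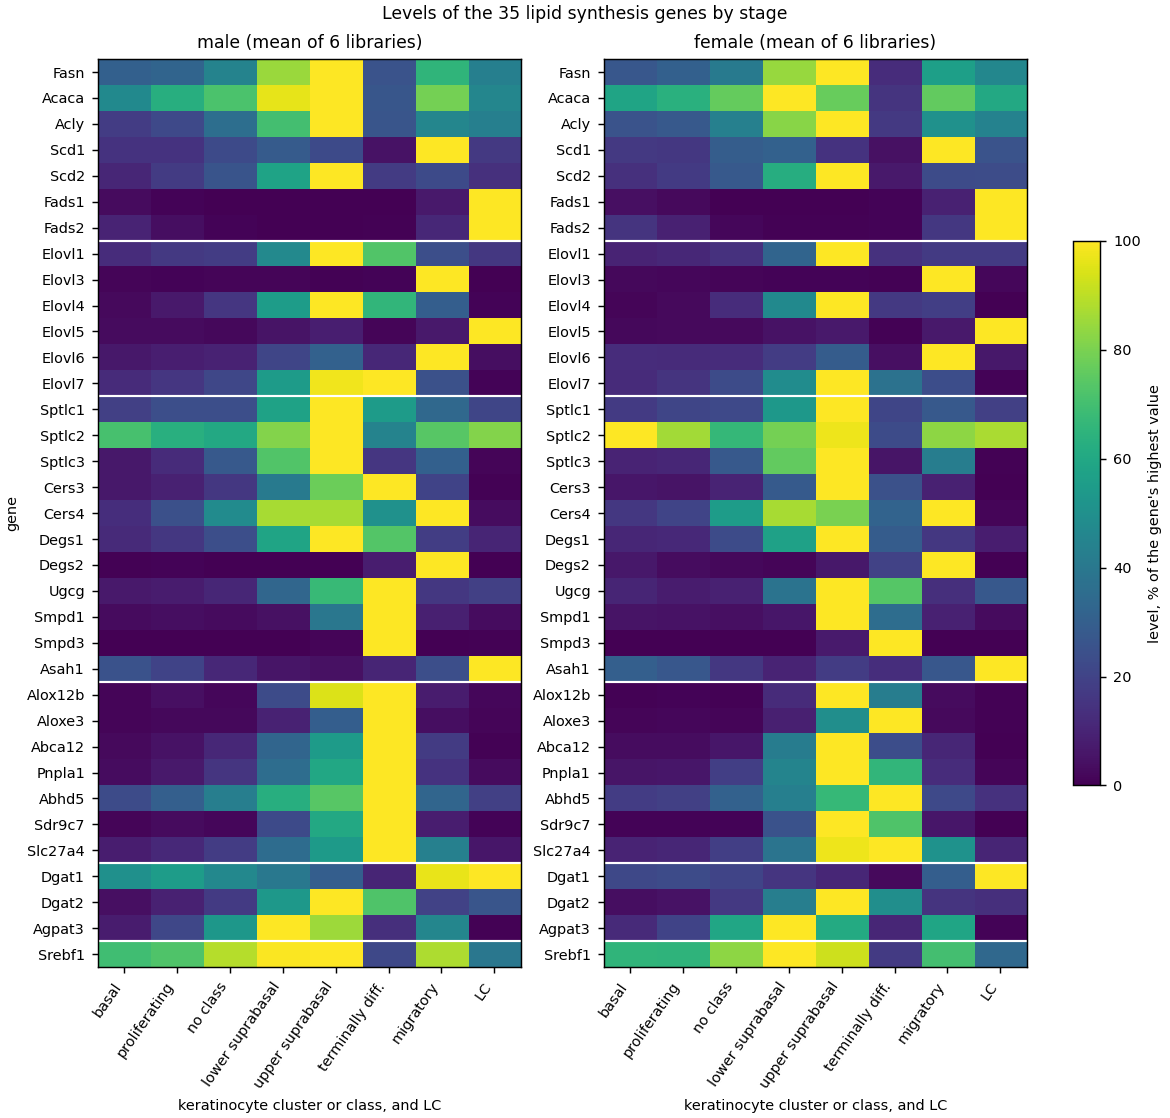
Mean level of each of the 35 genes (rows, grouped by role by the white lines) in 8 cell classes or clusters (columns) of the male and female libraries, as a percentage of the highest mean of that gene in that sex. Of the 35 genes, 12 in males and 17 in females peaked in the upper suprabasal cells, while Fads1, Fads2, Elovl5, Asah1 and Dgat1 had the highest of the 8 means shown in LCs in both, T cells not being shown.

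The enzymes that start fatty acid synthesis were moderately graded. Fasn, the fatty acid synthase, had levels of 17.0, 17.8 and 23.7 CPM (lowest, median and highest of 6 libraries) in male basal cells and of 57.7, 61.2 and 65.3 CPM in male upper suprabasal cells. In females it had 17.6, 22.5 and 24.5 CPM in basal and 69.5, 79.5 and 87.0 CPM in upper suprabasal cells. The basal and upper suprabasal libraries did not overlap in either sex, and the fold was 3.29 in males and 3.69 in females. Folds of a stage over basal cells are given, here and below, as the geometric mean of the ratios within the 6 libraries. Acly, which makes the cytosolic acetyl-CoA that Fasn uses, was 5.60-fold higher in upper suprabasal than in basal cells of males and 3.90-fold in females. Acaca, which carboxylates acetyl-CoA, varied less, from 10.5 ± 1.61 CPM (SD, n = 6) in basal to 22.1 ± 1.58 CPM in upper suprabasal cells of males. Scd2, a stearoyl-CoA desaturase, reached 301 ± 26.0 CPM in male and 318 ± 79.3 CPM in female upper suprabasal cells, from 32.7 ± 4.31 and 44.4 ± 4.06 CPM in basal cells. Its paralog Scd1 followed another order and was highest in the migratory class. Fads1 and Fads2, the desaturases of polyunsaturated fatty acids, were nearly absent from suprabasal cells, where the mean level of Fads1 was 0.0389 CPM in males and 0.0992 CPM in females.

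Among the elongases, Elovl4, which makes the ultra-long chains that acylceramides need, differed most between basal and suprabasal cells. Its level in basal cells was 19.5, 25.4 and 30.8 CPM in males (lowest, median and highest) and 21.7, 27.1 and 31.4 CPM in females. In upper suprabasal cells it was 970, 1034 and 1062 CPM in males and 1435, 1757 and 1879 CPM in females. Every upper suprabasal value was thus above every basal one, and the fold was 41.5 in males and 64.6 in females. Elovl1 and Elovl7, which elongate saturated and monounsaturated long chains, had a shallower gradient, with upper suprabasal means of 290 ± 22.4 and 284 ± 19.0 CPM in males and of 225 ± 27.2 and 297 ± 30.8 CPM in females. For Elovl7 in males the terminally differentiated mean of 290 ± 32.8 CPM overlapped the upper suprabasal one. Elovl6, which elongates palmitate, and Elovl3 were highest in the migratory class, and Elovl5, which elongates polyunsaturated chains, in LCs.

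**Figure D2:**
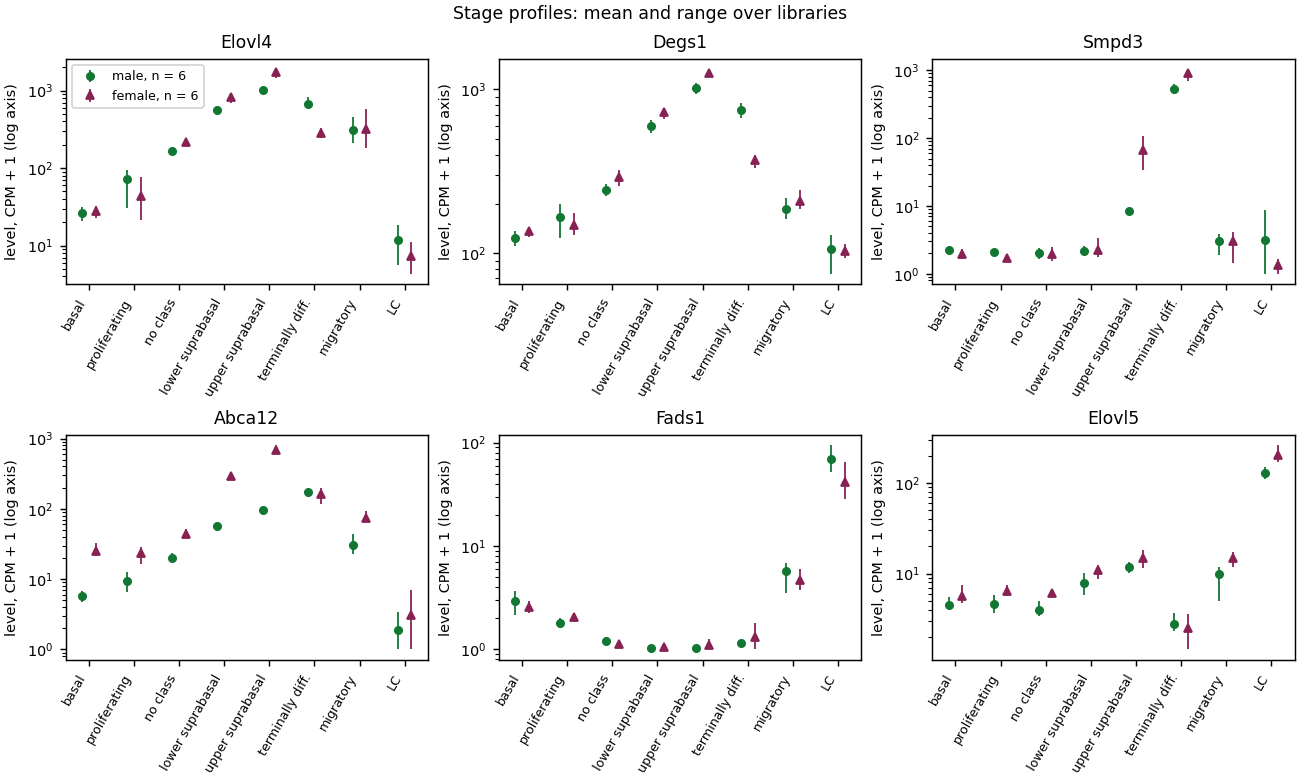
Level (CPM + 1, log axis) of 6 of the genes in 8 cell classes or clusters, with the mean (symbol) and the lowest and highest library (bar) of 6 male (circles) and 6 female (triangles) libraries. Elovl4 and Degs1 were highest in upper suprabasal cells, Smpd3 in terminally differentiated cells, and Fads1 and Elovl5 in LCs, among the 8 shown.

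The ceramide genes separated by step. Serine palmitoyltransferase, which starts sphingoid base synthesis, was measured through Sptlc1, Sptlc2 and Sptlc3. Sptlc3 had an upper suprabasal mean of 119 ± 14.2 CPM in males and 135 ± 14.6 CPM in females, 15.1-fold and 10.1-fold the basal level. Sptlc1 was 5.32-fold and 5.85-fold higher there. Sptlc2 varied little, with 25.8 ± 2.16 CPM in basal and 36.4 ± 2.64 CPM in upper suprabasal cells of males and 109 ± 6.85 against 107 ± 11.0 CPM in females, where the ranges overlapped. Degs1, the desaturase that converts dihydroceramide to ceramide, went from 109, 123 and 136 CPM in male basal cells to 935, 1016 and 1089 CPM in upper suprabasal cells. In females the values were 124, 135 and 144 CPM and 1209, 1262 and 1325 CPM. Basal and upper suprabasal libraries did not overlap in either sex. Degs2, which makes phytoceramide, was near 0 in nearly every class, with a highest mean of 2.23 ± 1.09 CPM in males and 2.73 ± 1.61 CPM in females, both in the migratory class. Cers3, the synthase for ultra-long ceramides, peaked at 60.1 ± 6.94 CPM in male terminally differentiated cells and at 158 ± 22.9 CPM in female upper suprabasal cells.

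Of the enzymes that act on finished ceramides, Ugcg, which adds glucose to ceramide, reached 290 ± 41.4 CPM in terminally differentiated cells of males and 335 ± 37.7 CPM in upper suprabasal cells of females. Smpd3, a neutral sphingomyelinase, had 450, 510 and 638 CPM in the terminally differentiated cells of the 6 male libraries, against 6.25, 7.67 and 8.37 CPM in upper suprabasal cells. In females these values were 702, 901 and 1037 CPM against 33.1, 66.9 and 107 CPM. Smpd1, the acid sphingomyelinase that frees ceramide outside the cells, had its highest mean in differently named clusters, 269 ± 56.0 CPM in terminally differentiated cells of males and 152 ± 15.5 CPM in upper suprabasal cells of females. Asah1, an acid ceramidase, ran the other way and was lower in lower suprabasal (4.44 ± 0.911 CPM) than in basal cells (19.8 ± 2.55 CPM) of males, and lower likewise in females (8.23 ± 0.958 against 25.2 ± 0.731 CPM).

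All 7 genes that complete and export acylceramides were highest in upper suprabasal or terminally differentiated cells in both sexes. Alox12b, the lipoxygenase that oxidizes linoleate in acylceramides, had 1.53, 4.28 and 4.98 CPM in male basal cells and 234, 275 and 362 CPM in male terminally differentiated cells. Its mean in male upper suprabasal cells was 268 CPM, and their range overlapped that of the terminally differentiated cells. In females it had 0.782, 0.944 and 1.32 CPM in basal and 204, 241 and 283 CPM in upper suprabasal cells. Its partner Aloxe3 was highest in terminally differentiated cells in both sexes, at 226 ± 24.0 and 242 ± 28.4 CPM. Sdr9c7, which oxidizes the product further, was 80.8-fold higher in its highest stage than in basal cells of males and 115-fold in females. Pnpla1, which transfers linoleate to ceramide, was 29.7-fold and 17.7-fold higher, and Abhd5, its cofactor, 4.33-fold and 5.56-fold. Abca12, which loads lipids into lamellar bodies, was 37.1-fold higher in terminally differentiated than in basal cells of males and 28.9-fold higher in upper suprabasal than in basal cells of females. Slc27a4, a fatty acid transporter and acyl-CoA synthetase, reached 80.6 ± 6.69 and 60.6 ± 7.56 CPM in terminally differentiated cells. In this group the libraries of the highest stage and of the basal class did not overlap for any of the 7 genes in either sex.

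Of the glycerolipid genes, Dgat2, which makes triglycerides, was 24.6-fold higher in upper suprabasal than in basal cells of males (278 ± 22.8 against 11.4 ± 1.94 CPM) and 26.4-fold in females (336 ± 22.0 against 12.7 ± 0.592 CPM). The other triglyceride synthase, Dgat1, had means below 10 CPM in basal, proliferating and suprabasal cells and stood higher in LCs than in those cells, at 12.4 ± 4.09 CPM in males, where the migratory class overlapped it, and 38.1 ± 7.49 CPM in females. In the T cell class its mean was higher still, at 29.96 ± 16.5 and 80.8 ± 16.5 CPM. Agpat3, an acyltransferase of phospholipid synthesis, peaked in lower suprabasal cells at 154 ± 11.6 and 123 ± 9.47 CPM and was at 20.5 ± 7.56 and 13.3 ± 6.07 CPM in terminally differentiated cells. Srebf1, the transcription factor that switches on fatty acid synthesis, changed little up to the upper suprabasal cells, with 27.2 ± 1.71 CPM in basal and 39.1 ± 5.63 CPM in upper suprabasal cells of males, and was lower in terminally differentiated cells, at 8.43 ± 1.43 CPM.

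In LCs, keratinocyte transcripts free in the cell suspension have to be set against the level of each gene. LC subclusters with few keratin UMIs (1065 male and 1811 female cells) were used for levels. In them the keratins Krt1, Krt5, Krt10 and Krt14 were at 0.0099 to 0.0435 of their keratinocyte level in males and at 0.0077 to 0.0313 in females. The keratinocyte level here is the mean of the named keratinocyte classes of the same library. Each class had the same weight, and the cluster in no class was left out. The LC subclusters had been kept because these same keratins together stood under 0.1 of keratinocytes. Low keratin ratios were thus set in part by that choice, and standing above them does not show a level above free RNA. In each sex 21 members stood above the ratio of every keratin in 6 of 6 libraries, 20 of them in both. The 15 that failed this in at least 1 sex were Elovl3, Elovl4, Elovl6, Elovl7, Sptlc3, Cers3, Cers4, Degs2, Smpd3, Alox12b, Aloxe3, Abca12, Pnpla1, Sdr9c7 and Agpat3, of which Cers4 passed in males and Elovl6 in females. For the other 13 an LC level above the ratio of every keratin was not seen in all 6 libraries of either sex. Elovl3 had 0 of 4328473 UMIs in male LCs, which allows a level of up to 0.693 CPM, counting error only.

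In all 6 libraries of both sexes, 5 members stood higher in LCs than their keratinocyte level, the mean of the named classes of the same library. Fads1, the delta-5 desaturase (chromosome 19, 10182888 to 10196877), had 51.1, 66.7 and 94.2 CPM in male and 27.4, 37.6 and 63.6 CPM in female LCs. In the migratory class, the highest of the keratinocyte classes for Fads1, it had 2.51, 4.90 and 5.90 CPM in males and 2.74, 3.55 and 4.93 CPM in females, and in T cells 7.24 ± 7.07 and 3.96 ± 3.56 CPM. No library of either class reached the lowest LC value of its sex. Elovl5 had 109, 124 and 150 CPM in male and 168, 194 and 263 CPM in female LCs, 25.4-fold and 28.7-fold its keratinocyte level. T cells had 46.4 ± 11.7 CPM of Elovl5 in males and 161 ± 58.2 CPM in females, where the range overlapped that of LCs. Fads2 was at 22.9-fold and 12.2-fold, Asah1 at 5.86-fold and 4.61-fold, and Dgat1 at 2.03-fold and 5.42-fold the keratinocyte level. Fads1, Fads2 and Elovl5 together are the enzymes that turn essential fatty acids into arachidonic and eicosapentaenoic acids. Ugcg, by contrast, had a level in LCs of 54.5 ± 5.89 and 91.7 ± 18.3 CPM, which was 0.538 and 0.897 of the keratinocyte level.

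The migratory class, marked by the keratin Krt79, was examined for sebaceous cells, since Scd1, Elovl3 and Elovl6 are also enzymes of sebum synthesis. A cell was counted as carrying sebocyte genes when it had UMIs of at least 4 of 8 such genes. There were 42 such cells in males and 37 in females, 34 of each in the migratory class. In that class Scd1 had 116, 226 and 446 CPM in males and 91.5, 358 and 575 CPM in females, and Elovl3 had 3.65, 31.5 and 57.2 CPM and 2.24, 24.9 and 34.7 CPM, a wide spread between libraries. Without the cells with sebocyte genes, the mean migratory level of Scd1 was 80.5 ± 30.1 CPM in males and 77.2 ± 28.9 CPM in females, in place of 246 and 331 CPM, and that of Elovl3 1.59 ± 1.504 and 0.623 ± 0.586 CPM, in place of 29.3 and 20.6 CPM. For Elovl6 it was 31.0 ± 13.1 and 34.3 ± 5.55 CPM in place of 136 and 149 CPM, and for Cers4, a ceramide synthase for long chains, 55.8 ± 8.86 and 65.2 ± 7.96 CPM in place of 123 and 137 CPM. Without these cells the migratory mean of Scd1 in females and the means of Elovl6 and Cers4 in both sexes were below those of suprabasal cells.

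With the limit on mitochondrial UMIs at 10%, 180 male and 92 female cells carried sebocyte genes, and in these Scd1, Elovl6, Cers4, Elovl3, Fasn, Acly, Slc27a4, Sptlc3 and Dgat1 were above every class or cluster ranked in 6 of 6 libraries of each sex. Scd1 was at 10090 ± 1421 CPM in males and 15316 ± 5241 CPM in females (SD, n = 6), Elovl6 at 7719 ± 883 and 7639 ± 2900 CPM, Cers4 at 4147 ± 257 and 4157 ± 707 CPM, and Elovl3 at 1415 ± 274 and 1082 ± 484 CPM. The classes and clusters compared here were those of the 5% limit, and the migratory class kept its cells with sebocyte genes. At the 10% limit, cells with sebocyte genes numbered 6 (female RD 1) to 51 (male HFD 3) per library. Fasn was 22.8-fold and 17.1-fold above the migratory class, Acly 11.1-fold and 5.47-fold, Dgat1 14.6-fold and 11.6-fold, and Sptlc3 5.17-fold and 7.15-fold. The genes that serve acylceramides divided in these cells. Elovl4 was at 3078 ± 1147 CPM in males, above every class or cluster ranked in 6 of 6 libraries, and at 5207 ± 4691 CPM in females, above them in 4 of 6, and Abhd5 was 2.21-fold and 2.39-fold above the migratory class. Cers3, Alox12b and Pnpla1 had means of 2.09, 3.59 and 2.93 CPM in these cells in males and of 6.32, 6.01 and 2.97 CPM in females.

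**Figure D3:**
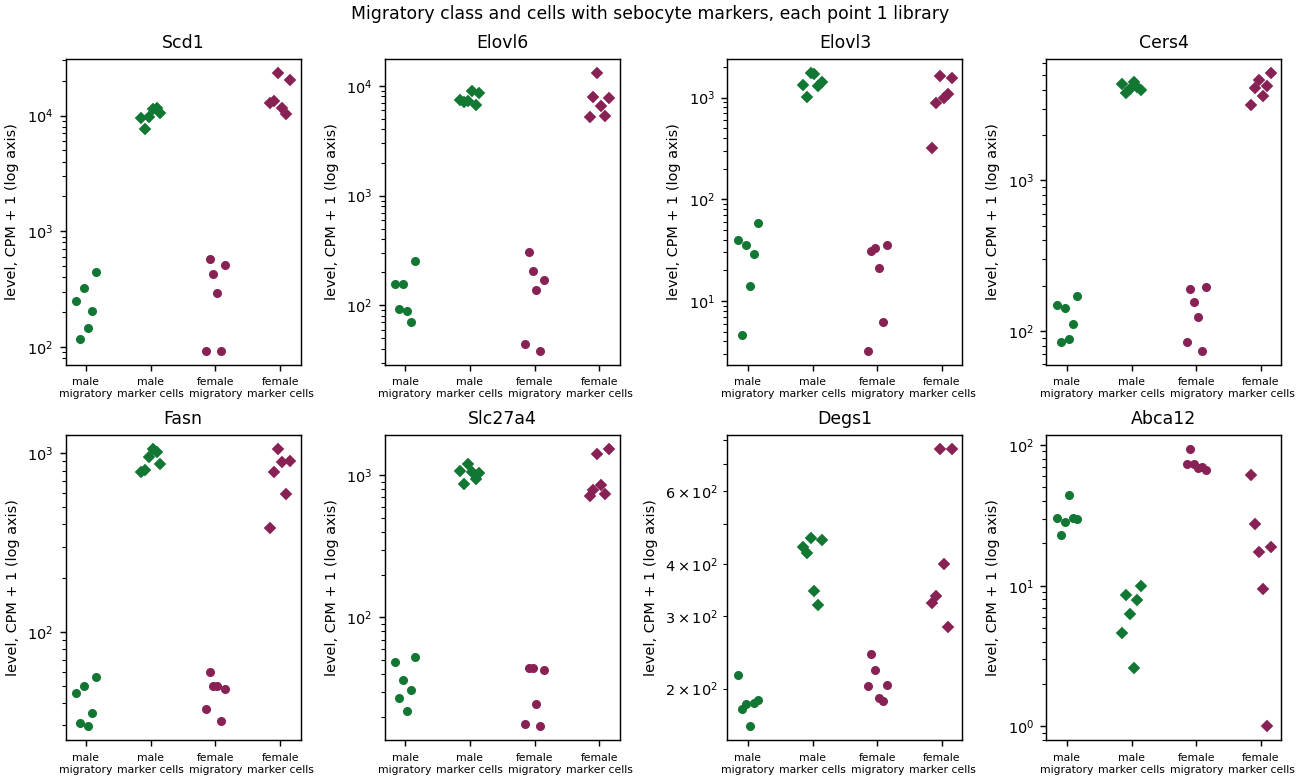
Level (CPM + 1, log axis) of 8 genes in the migratory class (circles) and in cells with UMIs of at least 4 of 8 sebocyte genes at the 10% mitochondrial limit (diamonds), 1 point per library, males in green and females in purple. Scd1, Elovl6, Elovl3, Cers4, Fasn and Slc27a4 were higher in the cells with sebocyte genes in every library, and Abca12 was lower.

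HFD was compared with RD within each sex and class on the UMIs summed per library, with the quasi-likelihood test of edgeR and Benjamini-Hochberg adjustment over all genes tested. No member passed the adjusted threshold of 0.05 in any of the 12 comparisons of sex and class, nor in any of the 6 tests of the interaction of diet and sex, where 0.0269% of all genes were called in basal, 1.1% in suprabasal and 0.113% in migratory cells and 0% in the other classes. In males 0% of the tested genes were called in every class. In females 0.723% of the genes tested in basal, 1.67% in proliferating, 4.11% in suprabasal, 0% in terminally differentiated, 0.241% in migratory cells and 0.057% in LCs were called. Between 29 and 35 members passed the filter on low counts in each comparison. The 3 members with the lowest unadjusted p in each comparison are given by value, so p-values in the following paragraphs are those of members picked by p.

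**Figure D4:**
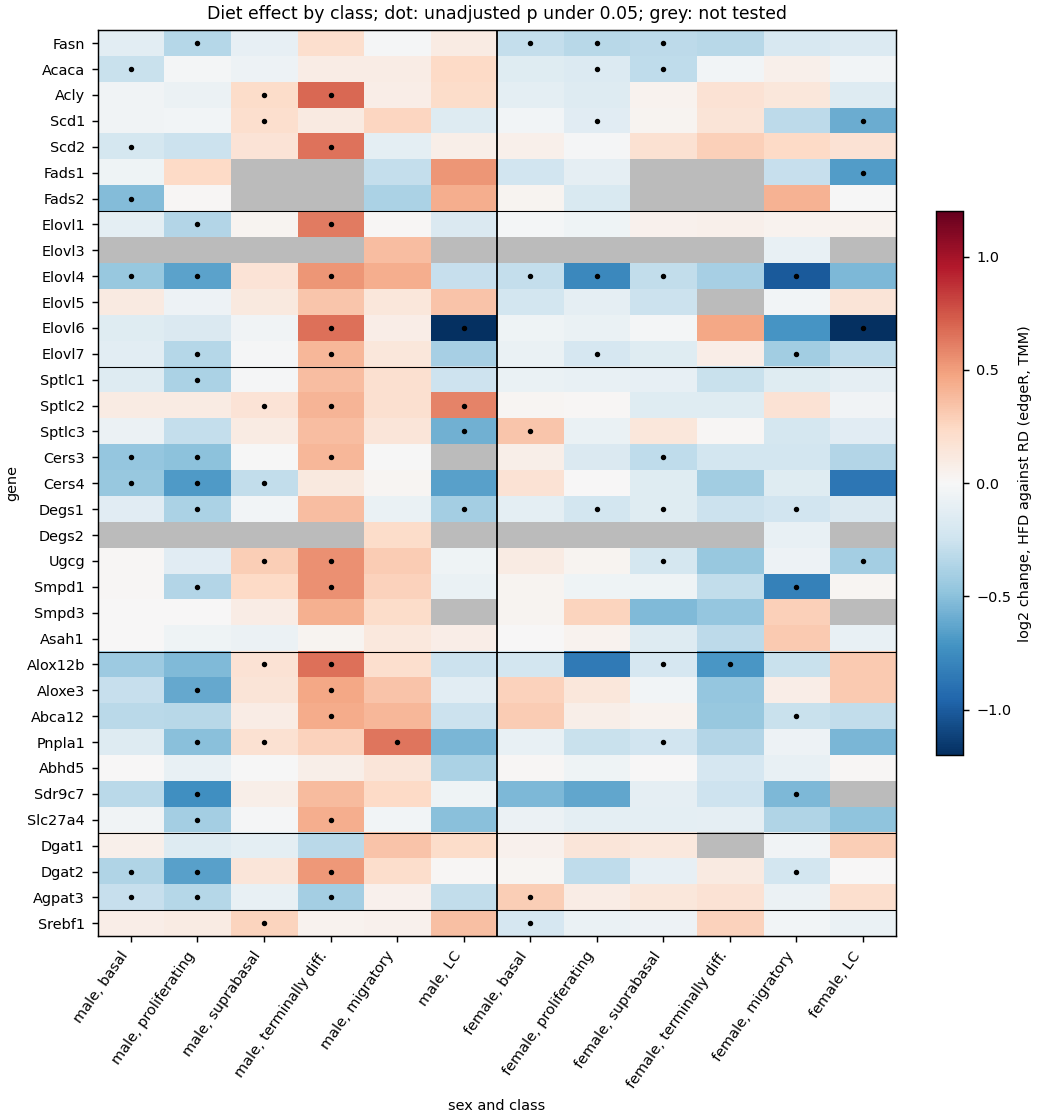
Log2 change of HFD against RD (color) of each gene (rows) in the 6 classes of males (left of the black line) and females (right), from edgeR, with a dot where the unadjusted p was under 0.05 and grey where the gene was not tested. The male proliferating column is mostly below 0 and the male terminally differentiated column mostly above 0, and no change passed the adjusted threshold.

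In male basal cells, 8 of 33 members tested had an unadjusted p under 0.05, where 7.87% of all genes did, and 24 of the 33 had a log2 change below 0. On the CPM scale, 16 members had every HFD library below every RD library, against 12.2% of all genes, and 0 had every HFD library above, against 2.93%. Elovl4 had 28.2, 30.8 and 29.6 CPM in the 3 RD and 19.5, 22.7 and 19.8 CPM in the 3 HFD libraries. The groups did not overlap, and the log2 change was -0.46 (SE 0.09, adjusted p = 0.216). Cers4 had 16.5, 21.3 and 18.4 CPM in RD and 12.9, 12.6 and 13.7 CPM in HFD, with a log2 change of -0.45 (SE 0.10, adjusted p = 0.273). Dgat2 had 11.9, 13.7 and 13.6 against 9.93, 10.2 and 9.12 CPM, a log2 change of -0.36 (SE 0.10, adjusted p = 0.383). DESeq2, another count model, called Elovl4 alone among the members (adjusted p = 0.0302), where it called 0.41% of all genes, and so did edgeR without male RD 2 (log2 change -0.44, adjusted p = 0.0479, with 0.641% of all genes called). With high doublet scores removed the change of Elovl4 was -0.22 (adjusted p = 0.804), and it was -0.28 when the cells were clustered with the lipid genes and -0.27 at a higher cluster resolution. The change of Dgat2 was -0.22 at the 10% mitochondrial limit, -0.21 with high doublet scores removed and -0.18 in the clustering with the lipid genes.

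In male proliferating cells, 28 of 33 members had a log2 change below 0, with a median of -0.33. An unadjusted p under 0.05 was found for 15 members, against 9.61% of all genes, and 15 had no overlap with HFD lower, against 8.16%, while 0 had none with HFD higher, against 7%. DESeq2 called 2 members, Cers4 and Dgat2, where it called 0.622% of all genes. Cers4 had 32.6, 43.6 and 34.9 CPM in RD and 21.9, 22.2 and 25.3 CPM in HFD libraries. The 3 HFD values were all below the RD ones, with a log2 change of -0.68 (SE 0.12, adjusted p = 0.207 by edgeR and 0.000397 by DESeq2). Without male RD 2 the call by edgeR was made (log2 change -0.54, adjusted p = 0.0411, with 0.144% of all genes called). Sptlc1 had 25.1, 28.0 and 27.7 against 19.99, 21.0 and 21.0 CPM (log2 change -0.38, SE 0.08, adjusted p = 0.232). Dgat2 had 30.2, 35.7 and 29.2 against 14.3, 22.5 and 23.5 CPM (log2 change -0.65, SE 0.16, adjusted p = 0.248 by edgeR and 0.0142 by DESeq2). At the higher resolution these changes were -0.19 for Sptlc1 and -0.40 for Dgat2. In these cells suprabasal markers moved the same way: the 10 markers summed to 13710 to 14474 CPM in RD and to 9931 to 12771 CPM in HFD libraries, and in male basal cells to 6578 to 7734 CPM and 5700 to 6374 CPM. The 8 markers of eccrine gland cells summed to 21.3 to 22.3 CPM in RD and 12.4 to 20.3 CPM in HFD libraries of proliferating cells, and to 12.7 to 26.4 CPM and 9.31 to 11.6 CPM in basal cells. The 6 LC markers summed to 34.1 to 35.5 CPM and 29.3 to 32.4 CPM in basal cells. The part of these markers in the lower levels of the members was not tested.

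In male suprabasal cells the members were divided, 18 with a log2 change above 0 and 13 below, and 8 of 31 had an unadjusted p under 0.05, against 9.19% of all genes. Without overlap, 5 were higher in HFD, against 4.25% of all genes, and 3 lower, against 11.7%. Ugcg had 132, 123 and 126 CPM in RD and 149, 165 and 138 CPM in HFD libraries. HFD was higher without overlap, and the log2 change was 0.29 (SE 0.09, adjusted p = 0.394). Cers4 had 103, 136 and 121 against 96.4, 98.4 and 88.2 CPM, with a log2 change of -0.30 (SE 0.10, adjusted p = 0.479), or -0.19 without male RD 2. Scd1 had 58.4, 58.8 and 65.8 against 71.3, 64.9 and 67.4 CPM, groups that overlapped, with a log2 change of 0.20 (SE 0.07, adjusted p = 0.482). The 9 sebocyte markers summed to 36.4 to 42.7 CPM in RD and to 29.8 to 34.8 CPM in HFD libraries of this class, and their part was not tested. They include Mgst1, a gene keratinocytes also express, which gave most of the same sum in female suprabasal cells.

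In male terminally differentiated cells, 29 of 31 members had a log2 change above 0, with a median of 0.39 beside -0.03 over all genes. Of these members 16 had an unadjusted p under 0.05, but so had 27.3% of all genes in this class, and 7 members were higher in HFD without overlap, against 5.05% of all genes, and 0 lower, against 19.6%. Scaling by library size alone moved the median of all genes from -0.03 to -0.27 and that of the members to 0.16. Alox12b had 238, 234 and 246 CPM in RD and 304, 312 and 362 CPM in HFD libraries. All HFD values lay above the RD values, with a log2 change of 0.66 (SE 0.17, adjusted p = 0.0752 by edgeR and 0.0164 by DESeq2). With high doublet scores removed it was 0.33 (adjusted p = 0.257). Acly had 26.1, 20.3 and 21.8 against 30.6, 27.3 and 36.3 CPM (log2 change 0.69, SE 0.19, adjusted p = 0.0786). It was called by DESeq2 (adjusted p = 0.0414) and by edgeR without male RD 3 (log2 change 0.76, adjusted p = 0.0486). Scd2 had 49.2, 48.8 and 36.55 against 61.3, 48.7 and 68.9 CPM, which overlapped, with a log2 change of 0.65 (SE 0.17, adjusted p = 0.0760 by edgeR and 0.0306 by DESeq2). When the cells were clustered with the lipid genes, or at a higher resolution, the change of Scd2 was -0.00479 or -0.0144 and that of Acly 0.41 or 0.40. Scaling by library size gave 0.41 for Scd2. Without male RD 3, edgeR called 5 members here and 9.56% of all genes, and DESeq2 on all libraries 5, where it called 4.22% of all genes. In this class basal markers summed to 1770 to 3496 CPM in RD and to 686 to 1637 CPM in HFD libraries, and the class made up 5.02%, 6.35% and 4.60% of the cells in RD and 6.20%, 9.06% and 5.22% in HFD libraries. Their part in the result was not tested.

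In the male migratory class 1 of 35 members had an unadjusted p under 0.05, against 6.13% of all genes, and 0 members were higher or lower without overlap, against 3.98% and 7.77%. Pnpla1 had 9.63, 6.75 and 7.60 CPM in RD and 15.1, 13.6 and 9.07 CPM in HFD libraries, with a log2 change of 0.64 (SE 0.25, adjusted p = 0.804). Abca12 had 29.3, 21.9 and 27.3 against 43.4, 29.2 and 28.8 CPM (log2 change 0.40, SE 0.19, adjusted p = 0.825), and Elovl4 had 330, 251 and 207 against 259, 332 and 449 CPM (log2 change 0.43, SE 0.21, adjusted p = 0.830). At the 10% mitochondrial limit the changes were 0.40 for Pnpla1, 0.24 for Abca12 and 0.09 for Elovl4, and with high doublet scores removed that of Pnpla1 was 1.01. Abca12 changed by 0.16 without male HFD 1, and Elovl4 by 0.67 without male RD 1, 0.26 without male RD 3, 0.21 without male HFD 3 and 0.31 without the cells carrying sebocyte genes. The eccrine gland markers summed to 47.6 to 57.3 CPM in RD and to 29.0 to 41.6 CPM in HFD libraries of this class, and their part was not tested.

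In female basal cells 5 of 33 members had an unadjusted p under 0.05, against 16.1% of all genes. At the higher cluster resolution edgeR called Elovl4 lower here (log2 change -0.70, adjusted p = 0.0243, with 0.824% of all genes called). In the main fit it was not called and was not among the 3 members of lowest unadjusted p, which follow. Sptlc3 had 11.4, 11.5 and 12.5 CPM in RD and 13.2, 17.0 and 14.6 CPM in HFD libraries, with a log2 change of 0.33 (SE 0.10, adjusted p = 0.163). Fasn had 23.7, 24.5 and 23.0 against 19.1, 17.6 and 22.0 CPM, a log2 change of -0.28 (SE 0.10, adjusted p = 0.210). Agpat3 had 12.6, 13.8 and 12.9 against 15.4, 14.5 and 18.4 CPM, a log2 change of 0.29 (SE 0.11, adjusted p = 0.237), which was 0.19 without female HFD 3 or at the higher resolution. These groups did not overlap, and in all 2 members were higher and 3 lower in HFD without overlap, against 11% and 10.8% of all genes. In female proliferating cells 6 of 33 had such a p, against 19.8% of all genes. Fasn had 26.4, 28.2 and 26.7 CPM in RD and 23.2, 20.2 and 22.0 CPM in HFD libraries, with a log2 change of -0.34 (SE 0.09, adjusted p = 0.0809). Elovl4 had 38.4, 75.1 and 48.3 against 37.9, 20.7 and 37.3 CPM, close to overlap, with a log2 change of -0.78 (SE 0.27, adjusted p = 0.158), or -0.43 without female RD 2. With high doublet scores removed edgeR called Elovl4 (log2 change -0.60, adjusted p = 0.0416, with 1.53% of all genes called). Without the low-count filter it was called too (log2 change -0.77, adjusted p = 0.00384, with 3.4% of all genes called). Elovl7 had 49.9, 48.6 and 44.6 against 43.3, 44.4 and 39.2 CPM (log2 change -0.20, SE 0.07, adjusted p = 0.167). In this class 5 members were lower in HFD without overlap, against 9.61% of all genes, and 0 higher, against 14.5%. The sebocyte markers, among them Mgst1, which keratinocytes also express, summed to 132 to 139 CPM in RD and 105 to 121 CPM in HFD libraries. The 8 basal markers summed to 12631 to 13604 CPM and 13691 to 14344 CPM. Their part was not tested.

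In female suprabasal cells 22 of 31 members had a log2 change below 0, with a median of -0.11. Of these, 8 had an unadjusted p under 0.05, against 23.2% of all genes, and 9 were lower in HFD without overlap, against 9.58% of all genes, and 1 higher, against 18.3%. Cers3 had 69.1, 67.4 and 68.5 CPM in RD and 61.9, 56.5 and 52.0 CPM in HFD libraries. The RD values were close together and above all HFD values, and the log2 change was -0.30 (SE 0.07, adjusted p = 0.0514 by edgeR and 0.0146 by DESeq2). Pnpla1 had 57.7, 61.4 and 59.1 against 50.6, 56.2 and 49.2 CPM (log2 change -0.23, SE 0.06, adjusted p = 0.0594 by edgeR and 0.0471 by DESeq2). Elovl4 had 1001, 1057 and 1064 against 940.4, 864 and 805 CPM (log2 change -0.30, SE 0.08, adjusted p = 0.0619 by edgeR and 0.00771 by DESeq2). DESeq2 also called Fasn and Acaca lower, at adjusted p of 0.0162 and 0.0176, 5 members in all, where it called 6.15% of all genes. The sum of 9 sebocyte markers was 130 to 134 CPM in RD and 103 to 121 CPM in HFD libraries, of which Mgst1, a gene keratinocytes also express, gave 130 ± 2.23 and 109 ± 9.68 CPM (SD, n = 3). Their part was not tested.

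The single clusters were fitted as well, a choice made after the class results were known. In the 3 male clusters, the one without a class and the lower and upper suprabasal ones, 0 of 31 members passed in each, where 0.00843%, 0% and 0% of genes were called. In the female cluster led by Hhip, Mettl7a1 and Il34, where 1.4% of genes were called, 1 of 32 members passed the threshold: Fasn fell, from 40.2, 36.7 and 35.9 CPM in RD to 26.8, 26.6 and 28.8 CPM in HFD libraries (log2 change -0.48, SE 0.07, adjusted p = 0.0182). Leaving out single libraries gave adjusted p between 0.0115 and 0.102, past the threshold in 3 of 6 cases. In the lower suprabasal cluster, led by Pla2g4f, C130079G13Rik and Endou, where 4.5% of genes were called, 2 of 31 members passed. Fasn fell from 82.2, 74.1 and 68.5 CPM to 64.9, 59.1 and 56.0 CPM (log2 change -0.35, SE 0.08, adjusted p = 0.0427), and Elovl4 from 855, 913 and 894 CPM to 792, 745 and 697 CPM (log2 change -0.29, SE 0.07, adjusted p = 0.0492). Each of these calls was lost on leaving out 5 of the 6 libraries in turn, with adjusted p up to 0.149 and 0.164. In the upper suprabasal cluster, where 0.00995% of genes were called and 0 members, Scd2 had 273, 237 and 261 CPM in RD and 420, 306 and 414 CPM in HFD libraries, with a log2 change of 0.52 (SE 0.13, adjusted p = 0.198). The members of next lowest p, Cers3 and Pnpla1, were lower in HFD without overlap. Their log2 changes were -0.34 (SE 0.11, adjusted p = 0.259) and -0.26 (SE 0.09, adjusted p = 0.289). Of the 31 members, 10 had a log2 change above 0 in this cluster, against 50.2% of all genes.

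In female terminally differentiated cells 1 of 29 members had an unadjusted p under 0.05, against 8.53% of all genes. It was Alox12b, with 119, 117 and 128 CPM in RD and 103, 95.5 and 60.8 CPM in HFD libraries and a log2 change of -0.70 (SE 0.27, adjusted p = 0.541). Aloxe3 had 264, 268 and 256 against 218, 248 and 197 CPM (log2 change -0.47, SE 0.24, adjusted p = 0.613), and Abca12 had 169, 159 and 195 against 164, 163 and 116 CPM (log2 change -0.46, SE 0.26, adjusted p = 0.640). Here 2 members were lower in HFD without overlap, against 3.01% of all genes, and 0 higher, against 8.75%. Without female HFD 3 the changes of Alox12b and Abca12 were -0.45 and -0.26, and with high doublet scores removed -0.46 and -0.13. When the cells were clustered with the lipid genes, Alox12b, Aloxe3 and Abca12 changed by -0.39, -0.28 and -0.18, and with library size scaling Aloxe3 and Abca12 by -0.24 and -0.24. Scaling by library size raised the median of all genes here from 0.03 to 0.24, and that of the members from -0.22 to 0.01. In the female migratory class 7 of 35 members had such a p, against 14.2% of all genes, and 4 were lower in HFD without overlap, against 8.88%, and 1 higher, against 11.3%. Elovl4 had 273, 417 and 585 CPM in RD and 183, 184 and 280 CPM in HFD libraries, which overlapped, with a log2 change of -1.004 (SE 0.24, adjusted p = 0.0937). Without the cells carrying sebocyte genes the change of Elovl4 was -0.56 and passed the threshold (SE 0.11, adjusted p = 0.0437), as did 0.644% of all genes. Smpd1 had 13.8, 17.5 and 22.1 against 8.75, 9.42 and 12.9 CPM (log2 change -0.81, SE 0.20, adjusted p = 0.112), and Elovl7 76.0, 77.1 and 85.2 against 56.8, 71.3 and 54.7 CPM (log2 change -0.41, SE 0.11, adjusted p = 0.121). At the 10% mitochondrial limit the change was -0.67 for Elovl4 and -0.53 for Smpd1. The 10 suprabasal markers summed to 12640 to 14821 CPM in RD and to 11523 to 12500 CPM in HFD libraries of this class, and the 8 eccrine gland markers to 38.2 to 43.7 CPM and 23.3 to 36.7 CPM. Their part was not tested.

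**Figure D5:**
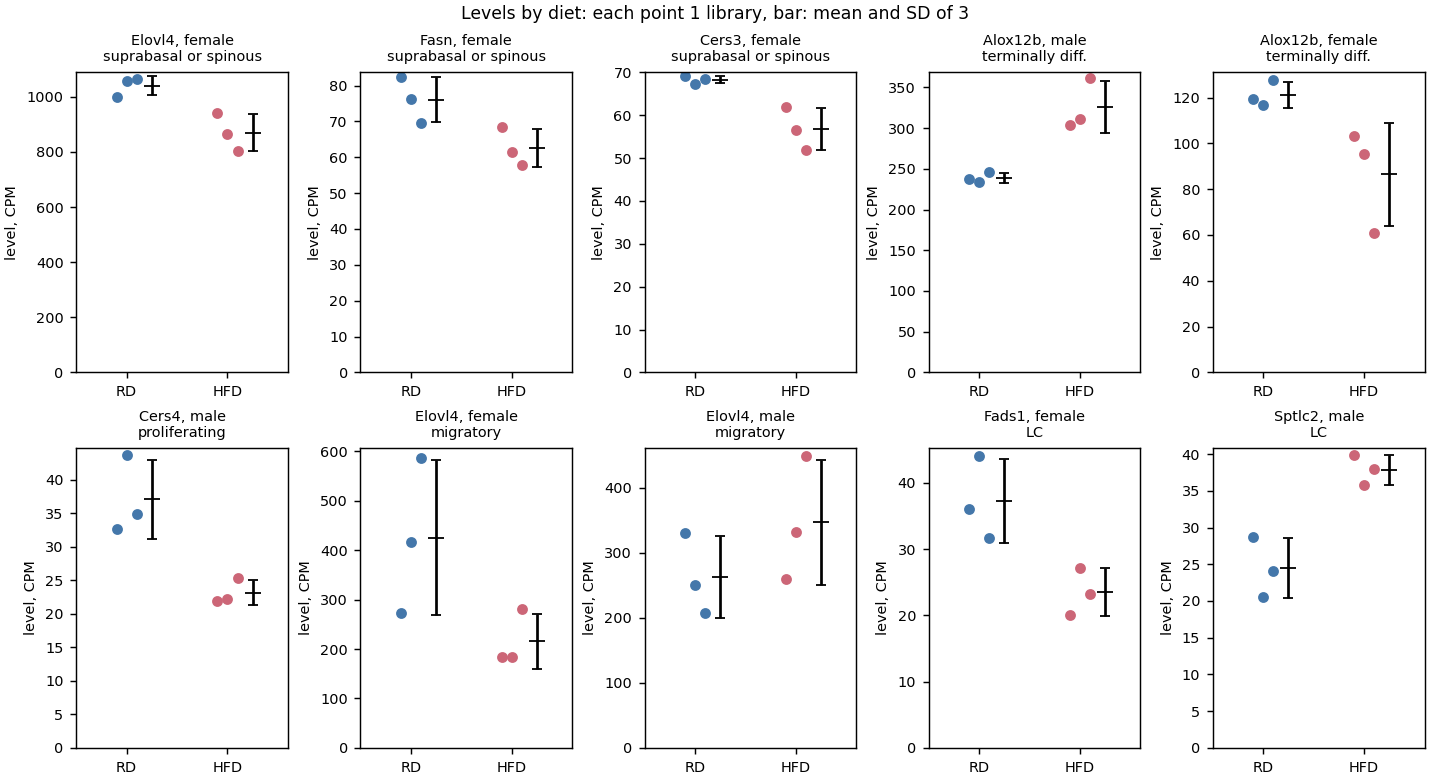
Level (CPM) of single genes in RD (blue) and HFD (red) libraries of 1 sex and class, 1 point per library, with the mean and SD of 3 libraries in black. Alox12b in terminally differentiated cells stood higher in HFD in males and lower in females, and Elovl4 in the migratory class overlapped between diets in both sexes.

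In LCs 4 of 31 members had an unadjusted p under 0.05 in males, against 5.64% of all genes, and 4 of 31 in females, against 8.94%. Without overlap, 2 members were higher in HFD and 4 lower in males, against 7.01% and 4.5% of all genes, and 0 were higher and 3 lower in females, against 8.45% and 6.81%. In males Sptlc2 had 28.7, 20.5 and 24.1 CPM in RD and 39.8, 35.8 and 37.9 CPM in HFD libraries, with a log2 change of 0.60 (SE 0.20, adjusted p = 0.867). Degs1 had 302, 267 and 307 against 195, 204 and 269 CPM, and Sptlc3 26.1, 24.6 and 26.2 against 13.3, 15.5 and 22.1 CPM, with log2 changes of -0.41 and -0.58, both with adjusted p = 0.867. With high doublet scores removed the change of Degs1 was -0.69. These sums included the LC subcluster with many keratin UMIs (280 male and 336 female cells), in which Sptlc3 had 45.2 ± 12.6 CPM and Degs1 441 ± 98.6 CPM in males (SD, n = 6). In the low-keratin subclusters Sptlc3 was at 1.51 ± 1.41 CPM and did not pass the filter for the test, and Degs1 had 106 ± 20.7 CPM, with a log2 change of -0.42 (adjusted p = 0.477). In the same low-keratin cells Sptlc2 had 20.6, 20.3 and 20.8 CPM in RD and 38.0, 42.4 and 36.0 CPM in HFD libraries, and Srebf1 7.28, 10.1 and 11.2 against 24.3, 17.3 and 23.0 CPM. The log2 changes were 0.89 (SE 0.25, adjusted p = 0.255) and 1.17 (SE 0.34, adjusted p = 0.333), with 0 of 16 members called where 8 of 5835 genes were. In females Fads1 had 36.0, 44.1 and 31.7 CPM in RD and 20.1, 27.2 and 23.2 CPM in HFD libraries. HFD was lower without overlap, and the log2 change was -0.67 (SE 0.17, adjusted p = 0.279). In the low-keratin subclusters it was -0.72 (SE 0.17, adjusted p = 0.0654), with 0 of 21 members called where 92 of 9191 genes were. Ugcg had 97.6, 99.4 and 86.7 against 61.3, 76.5 and 77.5 CPM (log2 change -0.41, SE 0.13, adjusted p = 0.367), and Scd1 93.2, 172 and 81.2 against 72.6, 81.0 and 75.3 CPM (log2 change -0.59, SE 0.23, adjusted p = 0.497). The change of Scd1 was -0.30 in the low-keratin subclusters (adjusted p = 0.359), -0.21 without female RD 2 and -0.20 without the cells carrying sebocyte genes.

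The difference of the diet effects between the sexes was tested on all 12 libraries, and a negative value means a lower change in females. In suprabasal cells, where 1.1% of genes were called, 0 of 31 members passed. Elovl4 had a log2 difference of -0.46 (SE 0.11, adjusted p = 0.0531), Pnpla1 of -0.42 (SE 0.10, adjusted p = 0.0535) and Ugcg of -0.51 (SE 0.12, adjusted p = 0.0546). DESeq2 called these 3 and Alox12b, where it called 3.79% of all genes, and without male RD 2 edgeR called 5 members and 5.69% of all genes. With edgeR on all libraries 10 of the 31 members had an unadjusted p under 0.05, against 17.8% of all genes, and 23 of the 31 differences were negative. In terminally differentiated cells 13 of 30 members had an unadjusted p under 0.05, but so had 25.7% of all genes, and 28 of the 30 differences were negative. Alox12b had a log2 difference of -1.47 (SE 0.36, adjusted p = 0.0660), Elovl4 of -1.03 (SE 0.31, adjusted p = 0.0872) and Aloxe3 of -1.03 (SE 0.32, adjusted p = 0.0923). Scaling by library size moved the median of all genes in this test from 0.01 to 0.56 and that of the members from -0.65 to -0.09. With library size scaling the differences of Alox12b, Elovl4 and Aloxe3 were -0.93, -0.47 and -0.49, and with high doublet scores removed -0.94, -0.52 and -0.59. For Alox12b the clustering with the lipid genes gave -0.97. DESeq2 called 8 members, where it called 7.62% of all genes, and edgeR 12 without female RD 2, where it called 13.5%.

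In proliferating cells Cers4 had a log2 difference of 0.70 (SE 0.14, adjusted p = 0.1002 by edgeR and 0.00953 by DESeq2, which called 0.588% of all genes). Without male RD 2, edgeR called it as well (log2 difference 0.55, adjusted p = 0.0320, with 0.769% of all genes called). Sptlc1 had a difference of 0.32 (SE 0.09, adjusted p = 0.257) and Agpat3 of 0.45 (SE 0.17, adjusted p = 0.383). At the higher resolution these were 0.46, 0.15 and 0.21, while the clustering with the lipid genes gave 0.20 for Sptlc1 and the removal of high doublet scores 0.30 for Agpat3. In basal cells the differences were 0.60 for Agpat3 (SE 0.15, adjusted p = 0.172), 0.65 for Cers4 (SE 0.20, adjusted p = 0.285) and 0.41 for Dgat2 (SE 0.13, adjusted p = 0.291). With the lipid genes among the clustering genes they were 0.38 for Agpat3 and 0.19 for Dgat2, at the higher resolution 0.35 and 0.25, and at the 10% mitochondrial limit 0.23 for Dgat2. In the migratory class Smpd1 had a difference of -1.06 (SE 0.27, adjusted p = 0.159), Elovl4 of -1.41 (SE 0.37, adjusted p = 0.182) and Abca12 of -0.64 (SE 0.24, adjusted p = 0.337). At the 10% mitochondrial limit the differences of Smpd1 and Elovl4 were -0.36 and -0.74, without the cells carrying sebocyte genes that of Elovl4 was -0.84, and without male HFD 1 that of Abca12 was -0.42. In LCs Fads1 had a difference of -1.18 (SE 0.32, adjusted p = 0.790), Sptlc2 of -0.63 (SE 0.22, adjusted p = 0.854) and Abhd5 of 0.40 (SE 0.23, adjusted p = 0.923), or 0.24 without male HFD 1. In the low-keratin LC subclusters these were -0.94 (adjusted p = 0.417), -0.84 (adjusted p = 0.400) and 0.30 (adjusted p = 0.892). Srebf1 had -1.40 there (SE 0.42, adjusted p = 0.400), and 0 of 21 members and 0 of 8450 genes were called. In these classes 4 of 34 members in proliferating cells, 10 of 34 in basal cells, 6 of 35 in the migratory class and 2 of 32 in LCs had an unadjusted p under 0.05, against 10.1%, 9.87%, 11.1% and 5.35% of all genes.

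Other genes of the same pathways, on 5 lists, were called in the comparisons within females, while in the 6 classes of males edgeR called 0 genes of any kind and DESeq2 0.0244% to 4.22% of all genes. Of the list genes called within females, the interaction with sex was called for Slc27a3 and Naaa, and for the others a difference between the sexes was not shown. The one called in the most classes was Slc27a3, a fatty acid transport protein and acyl-CoA synthetase related to Slc27a4. In female basal cells, where 0.723% of all genes were called, it had 31.3, 27.0 and 28.9 CPM in RD and 58.8, 52.0 and 51.2 CPM in HFD libraries, a rise of 0.89 on the log2 scale (SE 0.08, adjusted p = 0.0112). It rose by 1.03 in proliferating (adjusted p = 0.0165), by 1.64 in suprabasal (adjusted p = 0.0191) and by 0.95 in migratory cells (adjusted p = 0.0330). In male basal cells it had 27.3, 26.5 and 37.0 CPM in RD and 26.1, 21.9 and 23.1 CPM in HFD libraries, and the interaction was called in basal (log2 difference 1.21), suprabasal (2.11) and migratory cells (1.54). Leaving out single female libraries ended the call of Slc27a3 in 3 of 6 cases in basal cells (adjusted p 0.0630 to 0.117), in 5 of 6 in proliferating (0.0534 to 0.0806), in 3 of 6 in suprabasal (0.0728 to 0.0762) and in 6 of 6 in migratory cells (0.0512 to 0.147).

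In female suprabasal cells, where 4.11% of all genes were called, 3 of 27 tested genes of the fatty acid list were called: Slc27a3 and Acot1, an acyl-CoA thioesterase, rose and Me1, which supplies NADPH, fell. Of 27 genes of the ceramide list, Sgms2, a sphingomyelin synthase, rose by 0.48 on the log2 scale, and Naaa, an acid amidase, and Sgpl1, which degrades sphingosine phosphate, fell by 0.30 and 0.32. Of 19 glycerolipid genes, Plin3, a lipid droplet coat protein, and Agpat1, an acyltransferase at 0.589 CPM in RD, rose and Mboat1, a lysophospholipid acyltransferase, fell, and of 21 regulators Srebf2, which controls cholesterol synthesis, fell from 178 ± 4.70 to 143 ± 14.6 CPM (SD, n = 3, log2 change -0.35, adjusted p = 0.0320). None of the 28 genes tested on the list for acylceramides, lamellar bodies and envelope lipids was called there. Each of the 10 calls in suprabasal cells was lost without female RD 1, without RD 2 and without RD 3 in turn, with adjusted p from 0.0616 (Acot1) to 0.140 (Sgpl1). With all libraries, scaling by library size ended those of Naaa, Sgpl1, Mboat1 and Srebf2 (adjusted p 0.0504 to 0.0695), the 10% mitochondrial limit those of Naaa, Me1 and Sgpl1 (0.0506 to 0.0582), the clustering with the lipid genes that of Me1 (0.0856), and an equal number of UMIs or the removal of high doublet scores that of Agpat1 (0.0799 and 0.0621). In female migratory cells, where 0.241% of all genes were called, Naaa fell from 57.4, 49.3 and 48.1 CPM to 24.8, 26.7 and 25.9 CPM (log2 change -1.03, SE 0.10, adjusted p = 0.0111), and in female proliferating cells, where 1.67% were called, Gpam, which starts glycerolipid synthesis, fell by 0.69 on the log2 scale (adjusted p = 0.0280). Leaving out single libraries ended the call of Naaa in 2 of 6 cases (adjusted p 0.0527 to 0.101) and that of Gpam in 4 of 6 (0.0701 to 0.108).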

How the data were processed

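Single-cell suspensions of hind paw epidermis were sequenced with the 10x Genomics 3' assay. The authors deposited UMI counts per gene and barcode for each library, made with Cell Ranger on build mm10; the submitters' processing notes name Cell Ranger 7.2.0 and Seurat 5.0.0, and the file headers give 6.1.0 for males and 7.2.0 for females. The 35 genes and the lists were chosen with earlier results of these data known.

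Barcodes were kept from 200 (males) or 500 (females) up to 6000 genes, when mitochondrial UMIs made up no more than 5%. Each sex was clustered in scanpy 1.11.5 with leidenalg 0.10.2 on 2000 variable genes, leaving out the 35 genes and the lists, with 10 principal components. Clusters were named by markers. Doublets were not removed in the main analysis; their removal is an alternative. No cell was used as a replicate.

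UMIs were summed per library and class and compared by edgeR 4.0.16 in R 4.3.3, with its quasi-likelihood test (TMM, filterByExpr, Benjamini-Hochberg over all tested genes, threshold 0.05), within each sex and as an interaction. DESeq2 1.42.0 was the alternative test. The SE given with an edgeR log2 change was derived from the test, as the absolute change divided by the square root of its F statistic. Since each library was 1 mouse, p-values measure the spread between mice. In each comparison every member past the threshold was to be named and, with none, the 3 of lowest unadjusted p by value; of the lists, at most 4 called genes each. Intervals and floors (3 counts) cover counting error only. On simulated counts with known changes, 90% of 2-fold changes were recovered in male basal cells (12428 genes) and 55% in male LCs (8185 genes), and 69% and 73% in female basal cells (14791 genes) and LCs (10526 genes), with 15, 11, 18 and 11 calls of unchanged genes. Of 4-fold changes 96%, 90%, 98% and 97% were recovered in the same fits. Each fit held 100 genes changed 2-fold and 100 changed 4-fold, and the adjustment is less strict when many genes change. The rates thus do not hold for fits in which few or no genes are called, such as those of the male classes. No change below 2-fold and no other class was simulated, so these rates do not apply to smaller changes or to the other classes. Alternatives changed the normalization, test, low-count filter, depth, mitochondrial limit, doublets, clustering and libraries. The sebocyte-gene cells, single clusters and library-size scaling were added after the data were seen.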

Additional observations from a re-analysis of the deposited data

Results flagged for a closer look

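The diet effect differed between the sexes, by the interaction test of edgeR with Benjamini-Hochberg adjustment, for 4 genes of the pathway and marker lists and for no member. For Slc27a3 the female change exceeded the male one by 1.21 on the log2 scale in basal cells (SE 0.16, adjusted p = 0.0172), by 2.11 in suprabasal cells (SE 0.38, adjusted p = 0.0218) and by 1.54 in the migratory class (SE 0.21, adjusted p = 0.0121). For Naaa the difference was -1.26 in the migratory class (SE 0.17, adjusted p = 0.0121), and for Sgms1, a sphingomyelin synthase, -0.62 in suprabasal cells (SE 0.14, adjusted p = 0.0432). For Krt8, a keratin on the eccrine gland list, it was 3.54 in suprabasal cells (SE 0.57, adjusted p = 0.0140), where no library of either sex had more than 3.56 CPM. Leaving out single libraries ended the call of Slc27a3 in 4 of 12 cases in basal (adjusted p up to 0.109), 4 of 12 in suprabasal (up to 0.0733) and 1 of 12 in migratory cells (0.0502), that of Naaa in 1 of 12 (0.0502), that of Sgms1 in 10 of 12 (up to 0.120) and that of Krt8 in 1 of 12 (0.0508). At the 10% mitochondrial limit Krt8 had 2.14 (adjusted p = 0.204). Sex and the version of the counting software cannot be told apart in these differences.

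Cells outside the filter on mitochondrial UMIs also carried a signal. Between 5% and 10% mitochondrial UMIs there were 138 further cells with UMIs of at least 4 of 8 sebocyte genes in males and 55 in females, beside 42 and 37 at or under 5%.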

How the results depend on the processing

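The count of members past the threshold was 0 in all 18 diet comparisons and moved as follows, with the percentage of all genes called in the same fit. DESeq2 called 1 member in male basal (0.41%), 2 in proliferating (0.622%) and 5 in terminally differentiated cells (4.22%), 5 in female suprabasal cells (6.15%), and 1, 4 and 8 in the interaction for proliferating, suprabasal and terminally differentiated cells (0.588%, 3.79% and 7.62%). Without the low-count filter edgeR called 2, 10, 8 and 1 in male basal, proliferating and terminally differentiated cells and LCs (1.33%, 1.62%, 7.35% and 0.341%), 2, 5, 5 and 6 in female proliferating, suprabasal and migratory cells and LCs (3.4%, 5.27%, 2.46% and 1.26%), and 1, 1, 3, 7, 5 and 1 in the interaction for basal, proliferating, suprabasal, terminally differentiated and migratory cells and LCs (0.608%, 0.99%, 3.11%, 4.34%, 1.6% and 0.277%). A higher cluster resolution gave 1 in female basal (0.824%) and 6 in suprabasal cells (6.55%), removal of high doublet scores 1 in female proliferating cells (1.53%), and leaving out cells with sebocyte genes 1 in the female migratory class (0.644%). The cause was not tested. Leaving out each replicate in turn gave 0 to 1 in male basal and proliferating cells (1 without RD 2, 0.641% and 0.144%), 0 to 5 in male terminally differentiated cells (5 without RD 3, 9.56%) and 0 to 3 in female suprabasal cells (3 without HFD 1, 3.23%, and 2 without HFD 2, 5.57%). In the interaction it gave 0 to 1 in proliferating cells (1 without male RD 2, 0.769%), 0 to 5 in suprabasal cells (5 without male RD 2, 5.69%, 3 without female HFD 1, 0.819%, and 1 without male HFD 3, 0.5%) and 0 to 12 in terminally differentiated cells (12 without female RD 2, 13.5%, and 1 without male RD 3, 2.26%), and 0 elsewhere.

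With the replicate block, 1 member passed in male terminally differentiated (Acly, adjusted p = 0.0393, with 4.05% of all genes) and 1 in female suprabasal cells (Fasn, adjusted p = 0.0346, with 3.27% of all genes), and 0 in the other comparisons. Same-numbered RD and HFD libraries did not deviate together in every pair, with correlations from -0.34 to 0.27, so the numbers were not taken to pair the mice. Scd2 in male terminally differentiated cells reversed, to -0.00479 with the lipid genes among the variable genes and to -0.0144 at the higher resolution.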
